A study of Mus musculus with 8 samples.

Results

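The subunits of the respiratory chain and of the ATP synthase were examined in the liver RNA of 8 C57BL/6 mice (C57BL/6J in the methods of the study). Members were the protein-coding genes whose symbol begins with Nduf (assembly factors Ndufaf left out), Uqcr, Atp5, mt-, or Cox followed by a digit from 4 to 8, together with Sdha to Sdhd and Cyc1. This gave 100 of the 35975 genes with a transcript in the deposited counts, 87 encoded in the nucleus and 13 in the mitochondrial DNA. Of the 8 mice, 4 had received normal saline (NS) and 4 had received 4-hydroxyphenylacetic acid (4-HPAA), a product of gut microbial metabolism, for 2 weeks by osmotic pump into the portal vein. The 4-HPAA pumps held a 55 mM solution, and the mice were 8 to 10 weeks old when purchased. Both groups had the same surgery, so that the pump and the catheter were common to all libraries. The study used males and females, and the sex of each mouse is not given in the labels. The labels number the libraries 1 to 4 in each group without saying what a shared number stands for.

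The inner mitochondrial membrane holds 5 enzyme complexes that turn the electrons of NADH and succinate into ATP. Complex I (NADH dehydrogenase) and complex II (succinate dehydrogenase) pass electrons to ubiquinone, complex III (the cytochrome bc1 complex) passes them to cytochrome c, complex IV (cytochrome c oxidase) passes them to oxygen, and complex V (the ATP synthase) uses the proton gradient that results. Mitochondrial DNA encodes a few core subunits of every complex except complex II. The nucleus encodes all the others, so that assembly needs the products of both genomes, and hepatocytes, which are rich in mitochondria, use the ATP for gluconeogenesis, urea synthesis and bile formation.

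Total estimated counts lay between 29559978 and 30673398 per library. All 8 hepatocyte markers listed were measured in every library, and they summed to between 110013 and 146190 CPM (counts scaled to a common library size). Markers of other cell types were far lower, with summed ranges of 152 to 2557 CPM for 5 red blood cell genes, 95.4 to 283 CPM for 8 Kupffer cell and leukocyte genes and 0.352 to 2.85 CPM for 8 genes of skeletal muscle, heart or brown fat. The library NS 2 held the 2557 CPM of red blood cell genes, and the other 7 libraries held at most 734 CPM. None of the hepatocyte, red blood cell, Kupffer cell and leukocyte genes passed the edgeR test between the groups, and neither did any other gene tested. The 8 genes of skeletal muscle, heart or brown fat were not tested, because 0 of them reached 10 counts in every library.

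Across the 8 libraries the 13 mitochondrially encoded genes held between 6.36% and 7.45% of all counts, and the 87 nuclear-encoded genes between 0.873% and 1.09%. Levels of different genes were compared per length, as TPM (counts divided by transcript length and scaled to a common total). On that scale every mitochondrially encoded gene lay above every nuclear-encoded member in 8 of 8 libraries. The median was 7494 TPM over the 13 mitochondrially encoded genes and 191 TPM over the 80 nuclear-encoded genes that reached 10 counts in all libraries. The lowest mitochondrially encoded gene, mt-Nd5, a core subunit of complex I, was at 4107 ± 491 TPM (SD, n = 8), which is 4.31 times the level of the highest nuclear-encoded gene, Atp5b, the catalytic beta subunit of the ATP synthase (953 ± 82.3 TPM). The order of the 100 genes hardly differed between libraries, and the lowest Spearman correlation between any 2 of them was 0.988 across genes, which are not independent replicates. Libraries were made from poly(A) RNA, and how completely this captures mitochondrial messages was not tested.

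**Figure D1:**
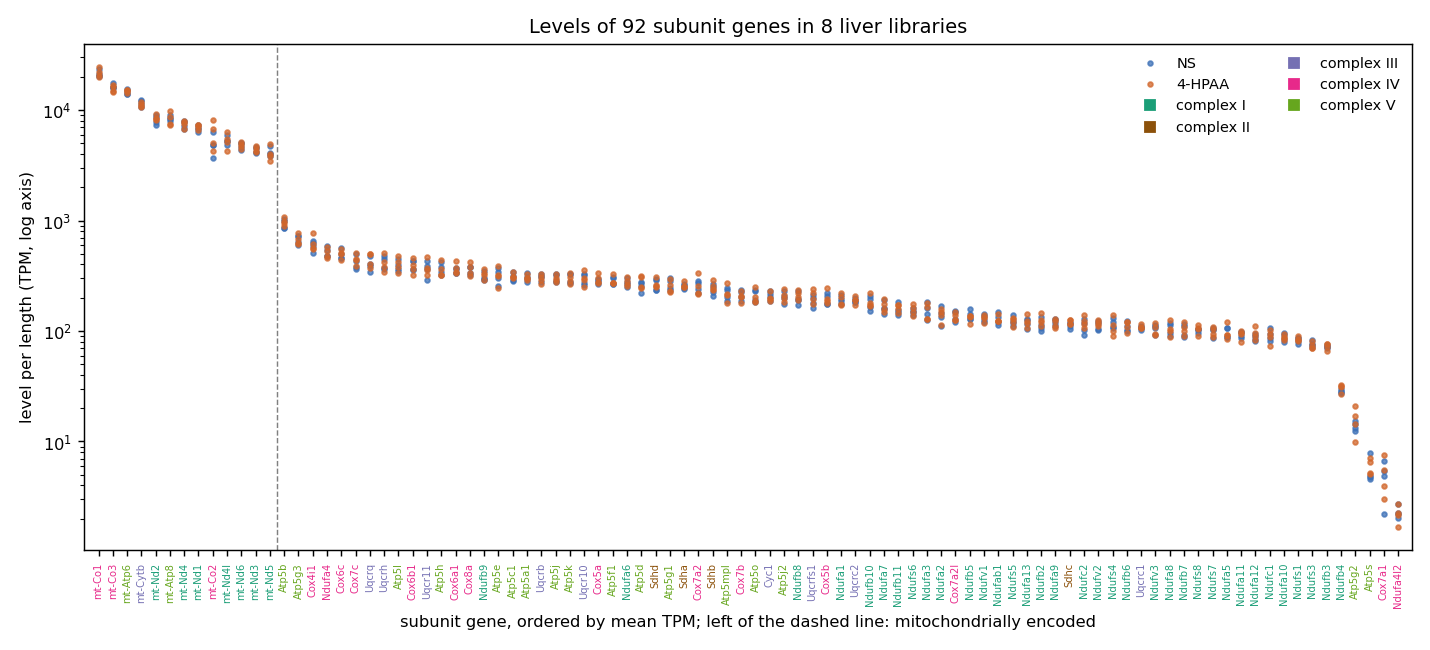
Level of 92 subunit genes that reached 10 counts in all libraries, in TPM on a log axis, with 1 point per library (blue, NS; orange, 4-HPAA), ordered by the mean and with names coloured by complex. The 13 mitochondrially encoded genes lie left of the dashed line at 4107 to 21514 TPM, nearly all nuclear-encoded genes lie between 50 and 700 TPM, and the points of both groups overlap for every gene.

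Among the mitochondrially encoded genes the levels spanned 5.24-fold. The highest was mt-Co1, the catalytic core of cytochrome c oxidase, at 21514 ± 1650 TPM (SD, n = 8), and it was the top member in each of the 8 libraries. It was followed by mt-Co3 (15981 ± 939 TPM), a further core subunit of that enzyme, by mt-Atp6 (14705 ± 536 TPM), which forms part of the proton channel of the ATP synthase, and by mt-Cytb (11362 ± 586 TPM), the cytochrome b of complex III. The complex I genes came next, from mt-Nd2 (8391 ± 608 TPM) through mt-Nd4 (7494 ± 504 TPM) and mt-Nd1 (6942 ± 399 TPM) to mt-Nd4l (5300 ± 627 TPM), mt-Nd3 (4388 ± 246 TPM) and mt-Nd5. The gene mt-Nd6, the only member on the other strand of the mitochondrial DNA, was at 4770 ± 286 TPM. Whether reads from the opposite strand were counted for mt-Nd6 was not tested, so its place is uncertain. Some neighbours in this order could not be separated. The gene mt-Nd2 was above mt-Atp8 in 3 of 8 libraries, and mt-Co2 was above mt-Nd4l in 3 of 8.

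Transcript length matters for the shortest of these genes. As a variant, 150 bases were taken off each annotated length, to allow for the fragments that can no longer start near an end. The gene mt-Atp8, a small subunit of the ATP synthase, has an annotated length of 204 bases. It went from 8358 to 26404 TPM and from the 6th to the first place. The gene mt-Nd4l went from the 10th to the 6th place at 8955 TPM. Annotated lengths were used throughout, and the length of the RNA itself was not tested, so these places are uncertain. The gene mt-Co1 was then second at 19925 TPM, and mt-Nd5 stayed lowest at 3742 TPM. All mitochondrially encoded genes remained above all nuclear-encoded members in 8 of 8 libraries.

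These reading frames are packed so tightly that several share bases. The annotation of GRCm38 gives mt-Atp8 and mt-Atp6 an overlap of 43 bases, and mt-Nd4l and mt-Nd4 an overlap of 7 bases. Reads inside the overlap fit both genes, so the counts within each pair are not independent. Whether the genes of a pair share a message was not tested, so their levels may not be those of separate RNAs. Both overlaps are shown in capitals with 25 bases on either side in lower case, 5′ to 3′ on the plus strand, at chrM:7902-7994 and chrM:10142-10198.
mt-Atp8 and mt-Atp6: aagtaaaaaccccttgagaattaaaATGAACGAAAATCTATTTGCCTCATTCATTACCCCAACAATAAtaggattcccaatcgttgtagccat
mt-Nd4l and mt-Nd4: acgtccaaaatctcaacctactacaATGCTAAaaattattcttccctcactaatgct
In both, the capitals begin with the start codon of the downstream gene and end with the stop codon of the upstream one. On opposite strands, mt-Nd5 and mt-Nd6 share 14 bases (chrM:13552-13565).

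The nuclear genome also carries copies of mitochondrial genes. On chromosome 1, between positions 24611535 and 24616197 of GRCm38, the annotation lists 7 pseudogenes in the order of mt-Co1, mt-Co2, mt-Atp6, mt-Co3, mt-Nd3, mt-Nd4l and mt-Nd4. Their transcripts were identical to the mitochondrial gene over 681 of 681 bases for mt-Co2 (Gm28661), 678 of 678 for mt-Atp6 (Gm10925), 783 of 783 for mt-Co3 (Gm28437), 294 of 294 for mt-Nd4l (Gm10222) and 876 of 876 for mt-Nd4 (Gm28439). The copy of mt-Nd3 (Gm28438) differed at 1 of 345 bases. The copy of mt-Co1 (Gm29216) differed at 6 of 492 bases, all near its own start, for example T1056A and A1066T counted from the first base of mt-Co1. A read from an identical stretch fits both places. The ends of mt-Co2 (chrM:7654-7696, plus strand) and of Gm28661 (chr1:24614885-24614924, minus strand) are shown because they hold the sole difference between these transcripts, the 3 bases of the stop codon in capitals.
mt-Co2: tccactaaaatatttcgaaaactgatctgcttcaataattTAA
Gm28661: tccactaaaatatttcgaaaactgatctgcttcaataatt

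For mt-Co2, the subunit that receives electrons from cytochrome c, the counts were split between these places. The estimated counts of mt-Co2 were 45864, 60274, 61714 and 77983 in the NS libraries and 53428, 82264, 63239 and 99336 in the 4-HPAA libraries. Its share of the counts of both places ranged from 27.6% in NS 1 to 57.0% in 4-HPAA 4. The sum of both, in contrast, stayed between 162919 and 182134 counts in all 8 libraries. The coefficient of variation over the 8 libraries was 27.5% for mt-Co2 alone, the highest of the 13 genes, and 5.37% with the copy added. With the copies added, mt-Co2 stood at 13781 TPM in 4th place, between mt-Atp6 (14754 TPM) and mt-Cytb, in place of 9th place at 5467 TPM. The other copies held fewer counts, with 39113 to 67095 for Gm29216 against 556971 to 675202 for mt-Co1, 3283 to 18782 for Gm28437 against 211567 to 248358 for mt-Co3, and 0 for the copies of mt-Nd4l and mt-Nd4.

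**Figure D2:**
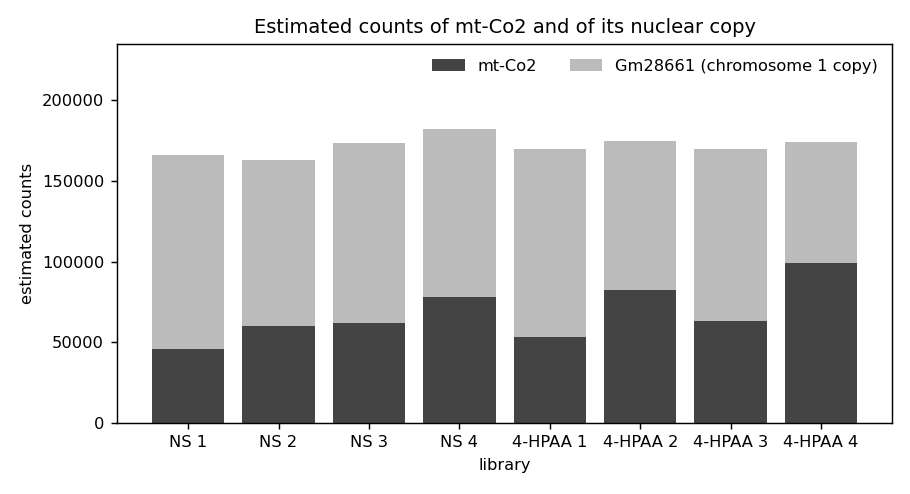
Estimated counts of mt-Co2 (dark) and of its copy on chromosome 1, Gm28661 (light), stacked for each of the 8 libraries. The dark part ranges from 45864 to 99336 counts, while the full height stays between 162919 and 182134.

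Among the nuclear-encoded members with a test, the levels spanned 424-fold, although 74 of the 87 had a mean between 50 and 700 TPM. Complex I had the lowest median, 117 TPM over 36 genes, with a range of library medians from 104 to 134 TPM. The medians of the other complexes were 251 TPM over the 4 genes of complex II, 298 TPM over 9 genes of complex III, 324 TPM over 14 genes of complex IV and 299 TPM over 17 genes of complex V. The library medians of complex III (249 to 329 TPM), complex IV (294 to 377 TPM) and complex V (265 to 329 TPM) overlapped, and none of them overlapped with those of complex I. Within complex I, the highest member was Ndufb9 (318 TPM) and the lowest was Ndufb4 (29.5 TPM), both accessory subunits. The processed pseudogene Ndufb4c, which shares sequence with Ndufb4, held 803 to 1114 counts against 439 to 539 for Ndufb4, so the low level of Ndufb4 is uncertain.

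In the catalytic core of complex I, the core subunit Ndufs3 was at 75.1 TPM. The flavin and iron-sulfur subunits Ndufv1, Ndufv2, Ndufs1, Ndufs7 and Ndufs8 lay above it, up to 132 TPM (Ndufv1). In complex II, the membrane anchor Sdhd (266 ± 28.3 TPM), the flavoprotein Sdha (257 ± 14.3 TPM) and the iron-sulfur protein Sdhb (246 ± 24.6 TPM) differed by less than their spread, and the second anchor Sdhc was lower (117 ± 7.37 TPM). In complex III, the small subunit Uqcrq (423 ± 62.1 TPM) was highest and the core protein Uqcrc1 (108 ± 4.22 TPM) lowest, with the Rieske iron-sulfur protein Uqcrfs1 (198 ± 25.9 TPM), cytochrome c1 (Cyc1, 206 ± 17.6 TPM) and the core protein Uqcrc2 (189 ± 11.04 TPM) in between. The ATP synthase subunits Atp5a1 (304 ± 19.7 TPM) and Atp5c1 (311 ± 20.6 TPM), the alpha and gamma subunits, were well below Atp5b. The lowest gene taken by the symbol rule in complex V was Atp5s (5.72 TPM), which is not a structural subunit.

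Several subunits of complex IV and V come in isoforms that differ between tissues, and here 1 isoform carried nearly all of the level in most families. Cox4i1 held 99.98% of the TPM of Cox4i1 and Cox4i2, the latter known from lung. Cox6a1 held 99.98% of its pair with Cox6a2, the heart and muscle form, and Cox6b1 held 99.8% of its pair with Cox6b2, a testis form. Cox8b, the muscle form, and Cox8c had 0 counts in all 8 libraries, which allows up to 3 counts in each, while Cox8a had 3197 to 4152. The muscle form Cox7a1 held 1.20% ± 0.335 of the Cox7a family (SD, n = 8), against 64.3% ± 2.19 for Cox7a2 and 34.5% ± 2.39 for Cox7a2l, which is better known as a supercomplex factor. Cox7a1 had 16 to 53 counts per library, with the 16 in NS 3. Of the 8 muscle, heart and brown fat genes listed, 4 (Myh6, Mb, Ucp1 and Cidea) had at most 3 counts in every library. The others, Myh7, Acta1, Ckm and Tnnt2, had more than 3 counts in at least 1 library, and the list summed highest in NS 3 (2.85 CPM). Ndufa4, first described in complex I and now placed in complex IV, held 99.6% of its pair with Ndufa4l2. The c-ring subunit of the ATP synthase comes from 3 genes, which contributed 71.1% ± 1.46 (Atp5g3), 27.3% ± 1.51 (Atp5g1) and 1.56% ± 0.280 (Atp5g2). The pseudogene Gm10175 on chromosome 7, which shares sequence with Atp5g2, held 2032 to 2827 counts against 126 to 274 for Atp5g2, so that the share of Atp5g2 is uncertain.

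The first question of the comparison between the groups was whether the infusion of 4-HPAA changed the expression of any subunit. No member passed the test. Over the whole liver transcriptome, the edgeR test called 0 of 12883 genes (0.00%) at a threshold of 0.05 on the adjusted p, where DESeq2 called 2 and limma-voom 0. Without adjustment, 225 of the genes (1.75%) had a p under 0.05 by edgeR. Of the 93 subunit genes tested, 0 had an adjusted p under 0.05 with edgeR, DESeq2 or limma-voom, and 0 had an unadjusted p under 0.05 with any of them. The 7 members left out of the test were Cox4i2, Cox6a2, Cox6b2, Cox7b2, Cox8b, Cox8c and a second annotated gene named Atp5o. The CPM of the groups did not overlap for 154 genes (1.20%), and overlapped for all 93 subunit genes. In bulk liver, fewer cells of a type and less RNA per cell cannot be told apart.

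The log2 fold changes (4-HPAA against NS) of the subunit genes ran from -0.056 to 0.30, with a median standard error of 0.11. The median was 0.041 over the 80 nuclear-encoded genes and 0.028 over the 13 mitochondrially encoded genes, beside 0.0007 over all genes tested. By direction, 65 of 80 nuclear-encoded genes and 9 of 13 mitochondrially encoded genes had a value above 0, beside 50.4% of all genes tested. These counts rested on single libraries. Without the library 4-HPAA 4, 22 of 80 nuclear-encoded genes were above 0 and their median was -0.040. Without NS 3, the count was 40 of 80, and without 4-HPAA 2 it was 80 of 80. Without NS 2, the library with the most red blood cell RNA, it was 56 of 80. The mitochondrially encoded genes depended on other libraries, with 5 of 13 above 0 and a median of -0.017 without NS 1, and 12 of 13 above 0 without NS 4.

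**Figure D3:**
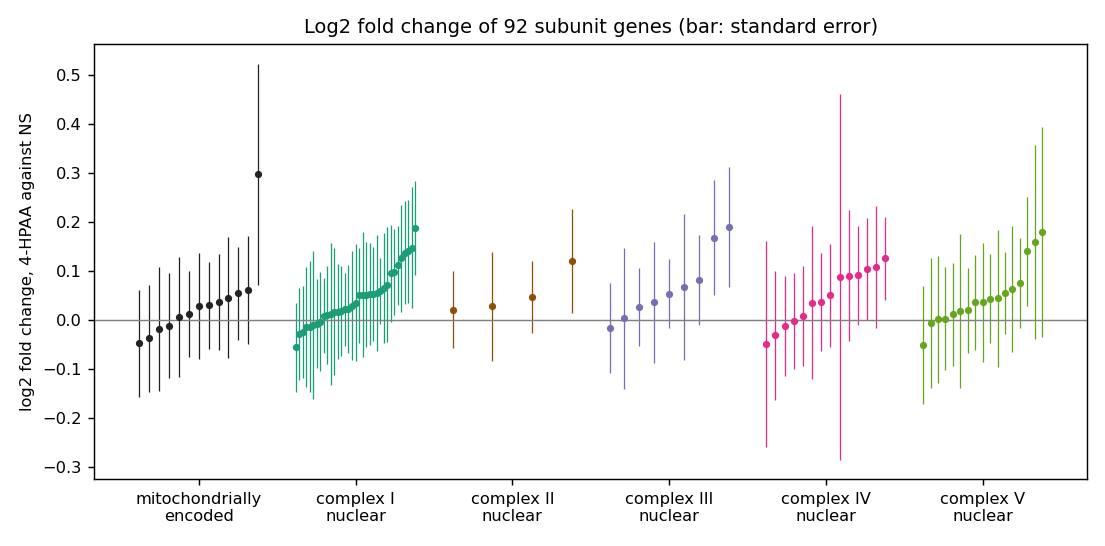
Log2 fold change of 92 subunit genes between 4-HPAA and NS (4 libraries each), with the standard error as a bar, for the mitochondrially encoded genes and for the nuclear-encoded genes of each complex, sorted within each. The values lie between -0.056 and 0.30, and none of the genes passed the test.

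The smallest p among the members belonged to Ndufab1 (chr7:122085403-122101886), the mitochondrial acyl carrier protein, which is a subunit of complex I and also serves lipoic acid and fatty acid synthesis in the mitochondrion. Its CPM were 59.8, 57.2, 52.5 and 60.8 with NS and 57.0, 61.5, 69.1 and 74.7 with 4-HPAA. The values overlapped, with 4-HPAA 1 inside the range of the NS mice and the other 3 above it. The log2 fold change was 0.19 ± 0.096 (SE, unadjusted p = 0.0801, adjusted p = 1.00, edgeR).

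Uqcrq followed, with 171, 155, 129 and 152 CPM in the NS libraries and 165, 141, 189 and 197 CPM in the 4-HPAA libraries. The lowest of each group, NS 3 and 4-HPAA 2, were both well below the others of that group, and the log2 fold change was 0.19 ± 0.12 (SE, adjusted p = 1.00, edgeR). The Rieske protein Uqcrfs1 had 159, 152, 134 and 178 CPM with NS and 155, 159, 180 and 207 CPM with 4-HPAA. Its log2 fold change was 0.17 ± 0.12, within the spread of the mice. Cox5a, an accessory subunit of cytochrome c oxidase, had 109 to 118 CPM with NS and 114, 112, 123 and 141 CPM with 4-HPAA, a log2 fold change of 0.13 ± 0.085. The other nuclear-encoded members among the 10 with the smallest p were Ndufv2, Ndufb2, Ndufb8 and Ndufc2 of complex I and Atp5d, the delta subunit of the ATP synthase. Their log2 fold changes lay between 0.11 and 0.15, with an adjusted p of 1.00 each (edgeR), and the library 4-HPAA 4 was highest for all of them. Without that library, the log2 fold changes of the 9 nuclear-encoded genes among these 10 lay between 0.046 (Cox5a) and 0.12 (Uqcrq), with 0.11 for Ndufab1 and 0.071 for Uqcrfs1. Without NS 3, they lay between 0.067 (Ndufc2) and 0.15 (Ndufab1), with 0.12 for Uqcrq and 0.10 for Uqcrfs1.

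The largest log2 fold change of any member was that of mt-Co2, 0.30 ± 0.23 (SE, unadjusted p = 0.218, adjusted p = 1.00, edgeR). Its CPM were 1469, 2065, 2022 and 2676 with NS and 1863, 2740, 2044 and 3470 with 4-HPAA. The lowest was NS 1 and the highest 4-HPAA 4, the same libraries that gave mt-Co2 the lowest and highest share of the counts it shares with Gm28661. The log2 fold change was 0.10 without 4-HPAA 4, 0.17 without NS 1 and 0.46 without NS 4. With the counts of the copy added, the CPM were 5329, 5582, 5688 and 6249 with NS and 5933, 5813, 5496 and 6091 with 4-HPAA, and the log2 fold change was 0.030 ± 0.099.

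For the other 12 mitochondrially encoded genes the log2 fold changes lay between -0.047 and 0.062. The CPM of mt-Co1 were 18323, 19653, 21984 and 20119 with NS and 21677, 22488, 19047 and 19458 with 4-HPAA, with both groups spread over the same range. For mt-Cytb they were 7187, 8109, 8309 and 8658 with NS and 8325, 8017, 7286 and 7801 with 4-HPAA. The complex I gene mt-Nd5 had 4085, 4524, 5202 and 4625 CPM with NS and 4483, 5375, 4382 and 3966 CPM with 4-HPAA. The mice of a group differed from each other more than the groups did.

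Among the catalytic nuclear-encoded genes, Atp5b had 1090, 966, 969 and 1051 CPM with NS and 1032, 1049, 1012 and 1204 CPM with 4-HPAA, a log2 fold change of 0.076 ± 0.092. Sdha had 433, 430, 458 and 424 CPM with NS and 459, 478, 425 and 442 CPM with 4-HPAA (0.047 ± 0.074). The values of the groups overlapped for both. Sdhb had the largest value within complex II, 0.12 ± 0.11, and Ndufs1, the largest core subunit of complex I, had 0.060 ± 0.067.

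The summed level of each genome was compared next. The mitochondrially encoded genes summed to 61985, 67387, 72054 and 72635 CPM with NS and to 70718, 73390, 65727 and 69380 CPM with 4-HPAA, or 68516 ± 4947 and 69804 ± 3188 CPM (SD, n = 4 each), a difference of 1.88%. The nuclear-encoded genes summed to 9949, 9079, 8670 and 9982 CPM with NS and to 9876, 8809, 9198 and 11172 CPM with 4-HPAA, or 9420 ± 652 and 9764 ± 1037 CPM, a difference of 3.65%. Both differences were smaller than the SD within either group. The ratio of mitochondrially to nuclear-encoded counts was 7.31 ± 0.853 with NS and 7.21 ± 0.869 with 4-HPAA. It ranged from 6.23 (NS 1) to 8.31 (NS 3) with NS, and from 6.21 (4-HPAA 4) to 8.33 (4-HPAA 2) with 4-HPAA.

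**Figure D4:**
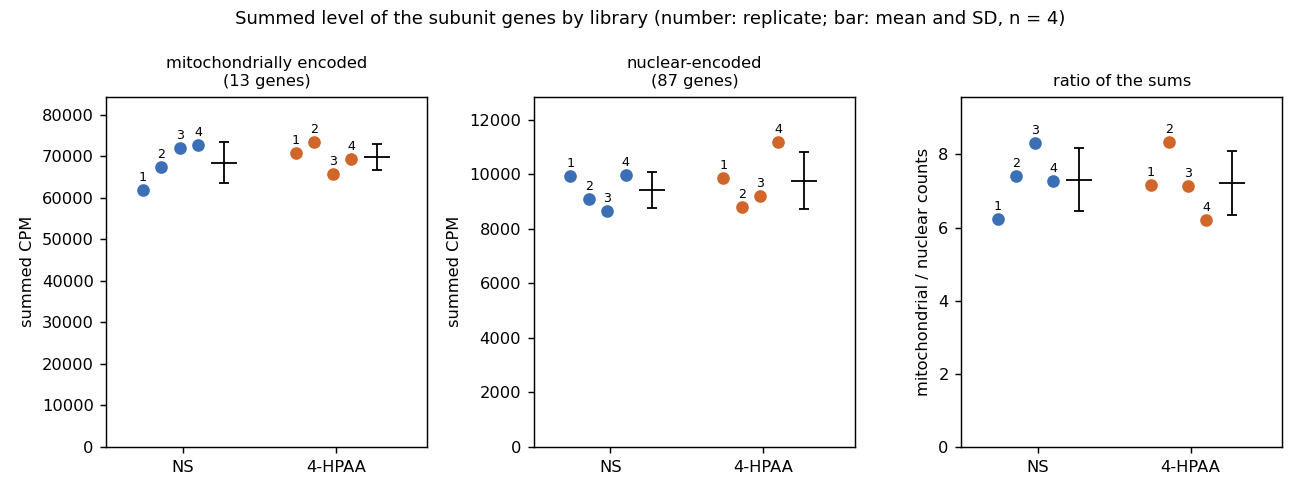
Summed CPM of the 13 mitochondrially encoded genes, of the 87 nuclear-encoded genes, and the ratio of their counts, with 1 point per library labelled by its replicate number and the mean ± SD (n = 4) beside each group. The groups overlap in all 3 panels, and the library 4-HPAA 4 has the highest nuclear sum, 11172 CPM.

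The nuclear-encoded genes varied together from mouse to mouse, and did so in both groups. In 4-HPAA 4, 79 of 80 were above their own mean over the 8 libraries, and 71 of 80 had their highest value there, beside 18.7% of all genes tested. The lowest value was in 4-HPAA 2 for 37 of 80 and in NS 3 for 28 of 80. In the library NS 4, 69 of 80 were above their mean, and in NS 1 and 4-HPAA 1 this held for 63 of 80 each. The 4 highest nuclear sums were thus those of the libraries numbered 1 and 4 in both groups. Sdha and Ndufs1 did not follow, since NS 3 and 4-HPAA 2 were above the mean for both, and Sdha was the member not above its mean in 4-HPAA 4. The mitochondrially encoded genes had another order in part, since 0 of 13 were above their mean in NS 1. In NS 3 and 4-HPAA 2, 9 of 13 were above their mean, beside 4 of 80 and 5 of 80 nuclear-encoded genes. In NS 4 both sets were high, with 12 of 13 mitochondrially encoded genes above their mean.

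**Figure D5:**
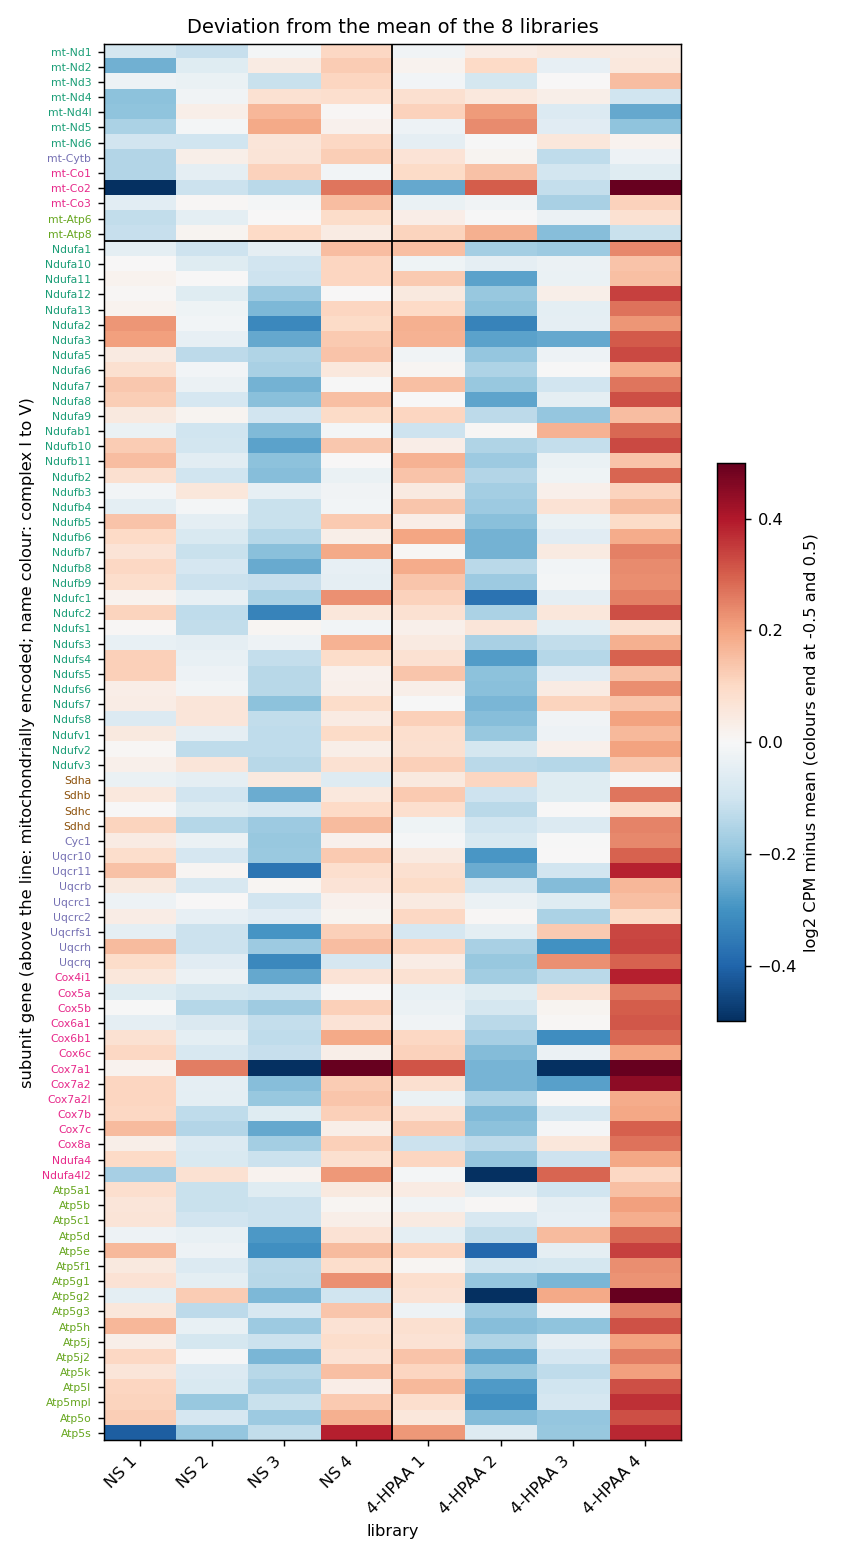
Deviation of log2 CPM from the mean of the 8 libraries for 13 mitochondrially encoded genes (above the line) and 79 nuclear-encoded genes, in columns by library (4 NS, then 4 4-HPAA). The column of 4-HPAA 4 is above the mean for all of these nuclear-encoded genes but Sdha, those of NS 3 and 4-HPAA 2 are below it for nearly all, and the colours reach the end of the scale for mt-Co2, Cox7a1 and Atp5g2, among others.

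Other measures followed this pattern in part. Many subunits are short, and the 54 nuclear-encoded genes with transcripts under 1000 bases had a median deviation of 0.26 in 4-HPAA 4, -0.17 in NS 3 and -0.20 in 4-HPAA 2, on the log2 scale. For the 852 other genes under 1000 bases the values were 0.19, -0.15 and -0.14 in the same libraries. The 26 nuclear-encoded genes of 1000 bases or more had 0.20, -0.12 and -0.083, whereas the 11938 other genes of that length had -0.027, 0.023 and 0.015. This split by length was added after the values were seen. The Kupffer cell and leukocyte markers summed to 95.4 CPM in 4-HPAA 4 and 98.2 CPM in NS 4, the lowest values, and to 283 CPM in NS 2 and 257 CPM in 4-HPAA 2, the highest. The Kupffer cell and leukocyte sum of 4-HPAA 1 (198 CPM) was close to that of NS 3 (202 CPM). The hepatocyte markers were highest in NS 4 (146190 CPM) and 4-HPAA 4 (144380 CPM), and lowest in 4-HPAA 3 (110013 CPM). Endothelial and stellate cell markers were also lowest in NS 4 and 4-HPAA 4, whereas cholangiocyte markers summed to 23.4 CPM in NS 4 and 37.9 CPM in 4-HPAA 4. The part of transcript length, of cell type makeup or of RNA quality in the pattern was not tested.

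The promoters of the nuclear-encoded genes were searched for letters bound by factors known to act on respiratory genes. Whether these letters bear on the shared variation between mice was not tested. RefSeq windows from 250 bases before to 50 bases after the start (GRCm38.p6) were found for 67 of the 87 genes, in 72 windows. TGCGCA, the core of the site of nuclear respiratory factor 1 (Nrf1), which reads the same on both strands, was in 18 windows (25%), beside 7.76% of all 32851 windows and 9.74% of those of protein-coding genes. CCGGAAG, the core bound by Ets factors such as Gabpa, was in 16 windows (22.2%), beside 8.86% and 11.6%. AAGATGG (YY1) was in 13.9% beside 6.34% and 6.24%, AAGGTCA (the site of estrogen-related receptors) in 11.1% beside 4.72% and 4.08%, and TATAAA in 11.1% beside 13.6% and 12.6%. Both strands were searched, and the letters of these motifs were counted independently of each other. A match describes the letters and is not evidence of a bound site.

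The Nrf1 and the Ets core were each more frequent in the windows of members, and whether they fall together beyond that was not tested. Both cores were in 4 of the 72 windows (5.56%), beside 1.28% of all windows and 1.76% of those of protein-coding genes. These were the windows of Atp5l, the g subunit of the ATP synthase, Cox6a1, Ndufb6 and Sdhd, from 4 different complexes. Their 250 bases before the start are shown 5′ to 3′ on the gene's own strand with both cores in capitals, at chr9:44920743-44920992, chr5:115348959-115349208, chr4:40279422-40279671 and chr9:50603850-50604099, all on the minus strand.
Atp5l: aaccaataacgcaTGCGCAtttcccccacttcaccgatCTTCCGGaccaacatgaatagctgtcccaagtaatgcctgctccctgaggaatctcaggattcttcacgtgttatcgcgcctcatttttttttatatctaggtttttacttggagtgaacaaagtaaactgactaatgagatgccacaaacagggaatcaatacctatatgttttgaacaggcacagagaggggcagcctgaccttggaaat
Cox6a1: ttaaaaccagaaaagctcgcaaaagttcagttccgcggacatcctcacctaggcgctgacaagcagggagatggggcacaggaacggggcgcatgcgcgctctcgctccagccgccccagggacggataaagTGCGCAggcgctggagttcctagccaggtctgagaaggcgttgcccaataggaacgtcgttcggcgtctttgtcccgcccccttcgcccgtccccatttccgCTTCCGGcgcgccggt
Ndufb6: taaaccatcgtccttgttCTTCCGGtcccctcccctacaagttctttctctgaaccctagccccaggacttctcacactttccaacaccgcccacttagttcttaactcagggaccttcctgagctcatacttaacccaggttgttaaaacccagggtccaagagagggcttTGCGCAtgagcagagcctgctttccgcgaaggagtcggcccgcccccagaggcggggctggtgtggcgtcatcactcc
Sdhd: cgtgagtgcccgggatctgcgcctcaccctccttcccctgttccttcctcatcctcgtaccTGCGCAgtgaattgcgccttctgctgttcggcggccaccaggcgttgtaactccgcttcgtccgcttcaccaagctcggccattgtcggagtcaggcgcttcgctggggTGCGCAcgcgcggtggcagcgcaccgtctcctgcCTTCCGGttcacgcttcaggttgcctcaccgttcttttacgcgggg
The windows of Atp5l, Cox6a1 and Ndufb6 carry each core a single time in this stretch, and that of Sdhd carries the Nrf1 core 2 times.

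Genes that build and serve the chain were read from 6 lists. None of their genes had an adjusted p under 0.05 (edgeR). An unadjusted p under 0.05 was found for 1 gene, among 29 factors of mitochondrial DNA and RNA, beside 1.75% of all genes tested. The counts by direction below are to be read beside the 50.4% of all genes tested with a value above 0. How far they rest on single libraries was not tested. Of 49 assembly factors tested, 33 had a log2 fold change above 0, with a median of 0.024. The smallest p were those of Sdhaf1, an assembly factor of complex II (8.87 ± 0.589 CPM with NS and 11.1 ± 2.71 CPM with 4-HPAA, SD, n = 4 each), and Ndufaf6, an assembly factor of complex I (10.3 ± 0.837 and 11.7 ± 0.880 CPM). For both, the groups overlapped.

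Of 29 factors of mitochondrial DNA and RNA, 20 had a log2 fold change below 0, with a median of -0.036. Mterf1a, a member of the mitochondrial transcription termination factor family, had 1.92, 2.06, 2.10 and 1.68 CPM with NS and 1.36, 1.47, 1.45 and 1.54 CPM with 4-HPAA. The groups did not overlap, and the log2 fold change was -0.41 ± 0.15 (SE, unadjusted p = 0.0197, adjusted p = 1.00, edgeR). Its close paralog Mterf1b can share reads with it, which makes the value uncertain. Fastkd1, which acts on mitochondrial RNA, had 36.9 ± 1.72 CPM with NS and 34.0 ± 1.01 CPM with 4-HPAA and also did not overlap.

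Among 16 regulators of mitochondrial biogenesis, 11 had a value above 0, with a median of 0.036. The transcription factor Yy1 had 61.3, 64.4, 65.3 and 60.7 CPM with NS and 65.5, 71.6, 68.0 and 69.6 CPM with 4-HPAA. The lowest 4-HPAA library was just above the highest NS library, and the log2 fold change was 0.13 ± 0.064 (SE, unadjusted p = 0.0777, adjusted p = 1.00, edgeR). The coactivator Pprc1 had 16.1 ± 4.80 CPM with NS and 12.9 ± 0.687 CPM with 4-HPAA. The 3 genes of these lists whose groups did not overlap, Mterf1a, Fastkd1 and Yy1, are to be read beside the 1.20% of all genes with that property.

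Of 22 genes of cytochrome c, carriers and uncoupling proteins tested, 9 were above 0, with a median of -0.011, and the smallest p were those of Pdss1, an enzyme of ubiquinone side chain synthesis (2.90 ± 0.576 CPM with NS and 2.30 ± 0.323 CPM with 4-HPAA), and Etfdh, which feeds electrons from fatty acid oxidation into ubiquinone (201 ± 7.63 and 213 ± 13.6 CPM). All 18 tricarboxylic acid cycle enzymes had log2 fold changes between -0.072 and 0.063, the extremes being citrate synthase (Cs) and Pdhb of pyruvate dehydrogenase. The 17 mitochondrial chaperones and proteases had a median of 0.025, with Oma1 (9.96 ± 1.33 and 8.97 ± 0.785 CPM) and Trap1 (143 ± 6.18 and 149 ± 7.62 CPM) at the smallest p.

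The genes outside the list whose log2 CPM followed the summed mitochondrially encoded level most closely over the 8 libraries were Nectin3, Pkdrej, Apol9b, Zbtb45 and Siae. Their Pearson correlations ran from 0.917 to 0.951. They were picked as the highest of all genes tested, and the points share their library and depth.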

How the data were processed

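Poly(A) RNA of 8 mouse livers was sequenced in stranded libraries. The authors pseudo-aligned the reads with kallisto (processing notes also name FastQC 0.11.9, DESeq2, edgeR and GRCm38.p6) and deposited estimated counts per transcript, without normalization or pooling. 0 columns were left without a sample. Of 119414 transcripts, 116728 were matched to 35975 genes of GENCODE M21; the others held 0.703% to 1.06% of counts and were not used here.

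Counts were summed per gene, rounded, and tested with edgeR 4.0.16 in R 4.3.3 (quasi-likelihood F test, TMM) on genes reaching 10 counts in all libraries, with Benjamini-Hochberg adjustment over all genes and a threshold of 0.05. SE is the log2 fold change over the square root of F. TPM used annotated lengths. A pseudogene was called a copy when at least 50% of its 31-mers were in a member. Steps were tested on simulated data. At this depth, the spread between mice limits precision, except near 10 counts.

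Members and lists were chosen with earlier results of these data known. Named are the mitochondrially encoded, core and isoform genes, the 10 members with the smallest p, the extremes of each complex, 2 genes per list, and the 5 most alike. Of the members, 1 is counted but not reported by name or plotted here. Other genes (copies, markers) were named after their values were seen. Alternatives were other normalizations and filters, DESeq2 1.42.0, limma-voom (limma 3.58.1), protein-coding transcripts only, replicate block, and each library left out.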

Additional observations from a re-analysis of the deposited data

Results flagged for a closer look

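Groups of 4 libraries were examined for 1 library far from the other 3, and 2 of 108 stood out, where chance gives about 1 in 20. In the NS group, Ndufs3, a core subunit of complex I, was at 50.9 CPM in NS 4 and at 43.8 to 44.4 CPM in the others. The mitochondrially encoded mt-Nd1 was at 4010 CPM in 4-HPAA 1 and at 4170 to 4196 CPM in the other 4-HPAA libraries.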

How the results depend on the processing

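No subunit gene had an adjusted p under 0.05 in any of the 18 alternatives, of which the addition of copies to their gene was chosen after seeing the data. Over all genes, DESeq2 called 2 genes, and leaving out 1 library at a time gave between 0 and 1 (1 without 4-HPAA 1, 0 without each other library), against 0. An unadjusted p under 0.05 (edgeR) was reached by 1 of 93 subunit genes, Ndufab1, with protein-coding transcripts only, beside 243 of 11940 genes. Without 4-HPAA 1 it was again 1 of 93, Ndufab1, beside 340 of 12927 genes. Without 4-HPAA 2 it was 2 of 93, Uqcrq and Atp5g2, beside 253 of 12908 genes. With the replicate block it was 1 of 93, mt-Co2 (log2 fold change 0.29), beside 336 of 12883 genes. Same-numbered libraries had correlations of 0.0398 to 0.481 over all genes, with 3 of 4 pairs above 0.1. Pairs of an NS and a 4-HPAA library with other numbers had -0.477 to 0.466. Of 8 libraries, 4 were closest to their own number. These values do not settle whether a shared number is a pairing, and the main test did not use it as one. The block called 0 genes, as without it, while 336 genes had an unadjusted p under 0.05 with it and 225 without it (edgeR).

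Of 396 values of 22 named genes, 19 changed sign, all of mitochondrially encoded genes and all between -0.067 and 0.053. With 1 library left out, the log2 fold changes ran from -0.077 to 0.053 for mt-Atp8, -0.10 to 0.0041 for mt-Co3, -0.089 to 0.0037 for mt-Cytb, -0.0035 to 0.12 for mt-Nd2, -0.025 to 0.079 for mt-Nd3, -0.031 to 0.067 for mt-Nd4, -0.067 to 0.080 for mt-Nd4l, -0.11 to 0.045 for mt-Nd5 and -0.020 to 0.055 for mt-Nd6. With protein-coding transcripts only, mt-Nd4l was at -0.0023. For the summed levels, group means of the log2 sums were compared here, unlike the means of CPM behind the percentages above. The difference of the nuclear-encoded level, 0.048, ran from -0.018 (without 4-HPAA 4) to 0.096. That of the mitochondrially encoded level, 0.029, ran from -0.019 (without NS 1) to 0.058. The difference of the log2 ratio, -0.020, ran from -0.094 to 0.050. In single libraries, the fold of the lowest mitochondrially encoded gene of that library over the highest nuclear-encoded one, 4.31 for the mean levels, ranged from 3.23 in 4-HPAA 4 to 4.83 in NS 3, and was 3.56 in NS 1. Depth limits Cox7a1, Ndufa4l2 and Atp5s.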
